A study of Chlorocebus aethiops with 12 samples.

Results

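FOS, FOSB, FOSL1, FOSL2, JUN, JUNB, JUND, ATF3, EGR1 and NR4A1 encode AP-1 subunits and other transcription factors, several of which cells switch on first after a stimulus. These 10 genes were taken as named transcript records, and every probe that carried one of the records was used. The rule found 12 probes for 8 of the 10 records, out of 41000 distinct probes for transcripts. All 8 records were among the 20037 features tested, where a feature is a transcript record, read at its brightest probe. JUND (NM_005354) and ATF3 (NM_001674) matched no probe by this rule and are not analysed here.

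AP-1 is a dimer of leucine zipper proteins, in which a FOS family member pairs with a JUN family member or 2 JUN family members pair with each other. Several of its genes belong to the immediate early class, which growth factors and stress induce through MAP kinases and serum response factor without new protein synthesis. The hormone-bound glucocorticoid receptor is known to dampen AP-1 driven transcription by contact with the AP-1 proteins, as well as to activate genes through its own binding sites. EGR1 is a zinc finger factor with serum response elements in its promoter, and NR4A1 is an orphan nuclear receptor of the immediate early class.

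All samples were COS-1 cells, a kidney line of the African green monkey, transiently transfected with mouse CCRP carrying a V5 tag (mCCRP-V5) and human glucocorticoid receptor carrying a FLAG tag (FLAG-hGR). The receptor carried a substituted tyrosine, changed to phenylalanine in Y30F and to glutamate in Y30E. Treatment began 40 h after transfection and lasted 6 h, with the synthetic glucocorticoid dexamethasone at 100 nM or with its vehicle, 0.1% DMSO. This gave the groups Y30F-DMSO, Y30F-DEX, Y30E-DMSO and Y30E-DEX, with 3 arrays each. Per the descriptions every group carried both constructs, although another label lists only mCCRP-V5 for Y30F and only FLAG-hGR for Y30E. An unmutated receptor and cells without receptor are not analysed here. Transiently transfected cultures hold cells with and without plasmid, so fewer responding cells and a smaller response per cell cannot be told apart. The labels do not say whether replicates were separate cultures, so p-values reflect only array-to-array spread, possibly technical. Marker genes of the line and the transfected genes were not checked, because the files give record IDs without gene names.

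Signals are given as scaled signal, which is the processed spot signal divided by that array's 75th percentile (signals of 706 to 876). The arrays were human and the RNA was from a monkey, so levels are compared only between groups for 1 probe, never between genes. The share of spots well above background ran from 60.5% to 67.0%. The arrays came on 3 slides of 4. The 3 Y30F-DMSO arrays shared slide 1 with the Y30F-DEX array of replicate 1. The other Y30F-DEX arrays shared slide 2 with replicates 1 and 2 of Y30E-DMSO, and slide 3 held what remained. For scale, the log2 difference of the record NM_016084 was 3.82 ± 0.09 (SE, n = 3 against 3) with Y30F and 3.97 ± 0.09 with Y30E. It was picked for its rise in earlier results of these data, so it is a description and no independent check of the receptors.

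The first question was what dexamethasone did to these genes with each receptor. FOS and EGR1 fell with both receptors, by 26.1% and 30.8% with Y30F and by 27.1% and 34.6% with Y30E. FOSL1 and JUN fell past the threshold with Y30E, by 39.7% and 31.5%. JUNB, FOSL2, FOSB and NR4A1 did not pass the test with either receptor. A change is called here at a Benjamini-Hochberg adjusted p below 0.05 in limma, adjusted over all 20037 features. Over 27 alternative settings, leaving out each array among them, the FOS call was lost in 18 with Y30F and 14 with Y30E. The EGR1 call was lost in 4 and 2. The Y30E call was lost in 4 for FOSL1 and in 17 for JUN.

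With Y30F 2 of the 8 members were called lower, against 0.389% of all features (78). With Y30E 4 of 8 were called lower, against 0.619% (124). With slide as a fixed block, 0 of 8 members were called with Y30F and 1 of 8 (EGR1) with Y30E, and the calls over all features in either direction went from 365 to 120 and from 423 to 182. None was called higher in the fit without the block, against 1.43% of features with Y30F and 1.49% with Y30E. At an unadjusted p below 0.05, 3 members were lower and 0 higher with Y30F, where 13.4% of all features passed in either direction. With Y30E 4 were lower and 1 higher (FOSL2), against 14.3%. The median log2 change of the 8 members was -0.21 with Y30F and -0.35 with Y30E, where the medians over all features were 0.02 and -0.00053. Every DEX array lay below every DMSO array for 3 members with Y30F (FOS, FOSL1 and EGR1) and for 5 with Y30E (these and JUN and JUNB). This held for 5.61% and 11.3% of all features. The split of calls over all features depended on the scaling with Y30F, where 287 were higher and 78 lower. It was 217 and 113 with quantile normalization and 123 and 144 with median centring, which moved the median of all features by -0.13 (log2).

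These background counts also rested on single arrays. Without Y30F-DEX replicate 1, the only DEX array on slide 1, the features called in either direction with Y30F went from 365 to 1367. The called members stayed at 2 of 8. The remaining Y30F-DEX arrays are all on slide 2 and the Y30F-DMSO arrays all on slide 1. Those 1367 calls thus cannot be told apart from a difference between slides. Without replicate 2 or 3 of Y30F-DEX there were 237 or 207 calls. With Y30E the 423 features became 184 or 204 without Y30E-DMSO replicate 1 or 2, and 228, 255 or 243 without Y30E-DEX replicate 1, 2 or 3. The called members with Y30E then numbered 1 or 2, and 3, 2 or 3. The Y30E calls rose to 596 features without Y30E-DMSO replicate 3, with 2 members called. That leaves Y30E-DMSO on slide 2 and Y30E-DEX on slide 3, so a slide difference cannot be told apart there either. The Y30E calls rose to 522 without Y30F-DEX replicate 1, with 4 members called.

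**Figure D1:**
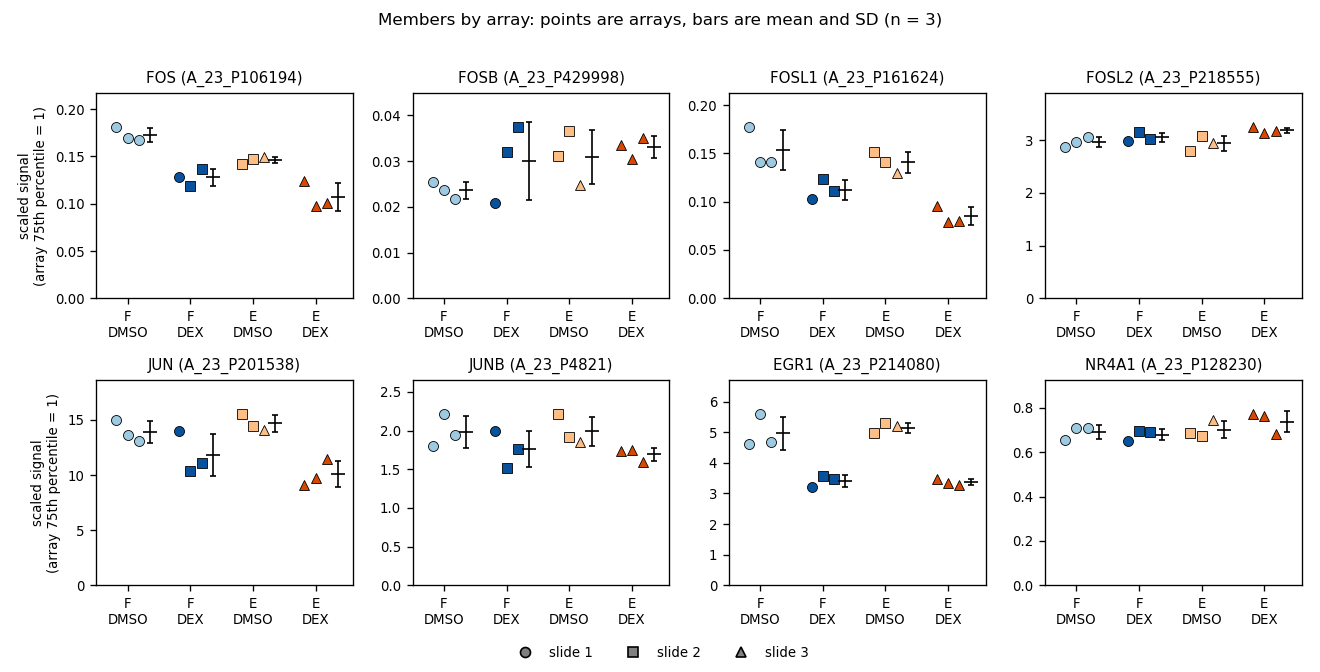
Scaled signal (array 75th percentile = 1) of the 8 members in the 4 groups, at the brightest probe of each. Points are arrays with a marker for the slide, and bars are the mean and SD of 3 arrays. For FOS, FOSL1 and EGR1 all 6 DEX arrays lie below all 6 DMSO arrays.

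The FOS family was taken first. FOS (NM_005252, probe A_23_P106194), the founding partner of JUN in AP-1, had scaled signals of 0.181, 0.170 and 0.168 on the Y30F-DMSO arrays. On the Y30F-DEX arrays they were 0.128, 0.119 and 0.137. With the Y30E receptor they were 0.142, 0.147 and 0.149 under DMSO and 0.124, 0.0975 and 0.100 with dexamethasone. The DEX arrays were below the DMSO arrays of the same receptor without overlap. The log2 change was -0.44 ± 0.09 (SE) with Y30F and -0.46 ± 0.09 with Y30E (limma adjusted p = 0.0388 and 0.0289, n = 3 against 3).

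By group mean, FOS stood highest in Y30F-DMSO at 0.173 ± 0.00704 (SD, n = 3). Y30E-DMSO followed at 0.146 ± 0.0036, then Y30F-DEX at 0.128 ± 0.00923 and Y30E-DEX at 0.107 ± 0.0146. The first 3 groups did not overlap with each other, and the Y30F-DEX and Y30E-DEX arrays did. FOS was a dim probe, with a median spot signal of 110 to 168 over a local background of 23 to 35. Within slide 1 its change with Y30F was -0.43, and within slide 3 its change with Y30E was -0.49. These values rest on the only DEX array of slide 1 and the only DMSO array of slide 3. They reuse arrays of the fit over all arrays, so they are no separate check of it. The call was lost with slide as a block (adjusted p = 0.312 for Y30F and 0.272 for Y30E). With normexp background correction the changes were -0.19 and -0.25 and neither passed (adjusted p = 0.224 and 0.0839). The Y30E change also missed with quantile normalization and median centring (limma adjusted p = 0.0742 and 0.107). Both calls were also lost with no filter on dim probes and with the compared groups alone.

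FOS calls rested on single arrays. With Y30F the call was lost in 9 of 12 cases, when leaving out any DMSO array of either receptor, replicate 2 or 3 of Y30F-DEX, or replicate 3 of Y30E-DEX. The changes stayed between -0.49 and -0.38. With Y30E it was lost without any 1 of the 3 Y30E-DMSO arrays or Y30E-DEX replicate 2 or 3, with changes between -0.57 and -0.39.

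FOSL1 (NM_005438, probe A_23_P161624), which encodes the FOS-related factor FRA1, gave 0.177, 0.141 and 0.141 in Y30F-DMSO and 0.103, 0.124 and 0.111 in Y30F-DEX. It gave 0.152, 0.141 and 0.130 in Y30E-DMSO and 0.0955, 0.079 and 0.0803 in Y30E-DEX. The Y30E-DEX arrays were lower than all others, and Y30F-DEX lay between them and the DMSO groups, which overlapped. The log2 change was -0.73 ± 0.11 (SE) with Y30E and passed the test (limma adjusted p = 0.00869). With Y30F it was -0.44 ± 0.11, which did not pass (adjusted p = 0.104).

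For FOSL1 the changes within a slide were -0.57 with Y30F (slide 1) and -0.62 with Y30E (slide 3). The Y30E call was lost once slide entered as a block (adjusted p = 0.181), and also without Y30E-DMSO replicate 1 (adjusted p = 0.0504). The Y30F change passed with quantile normalization and with median centring (limma adjusted p = 0.0244 and 0.0252). This probe was dim like that of FOS, with a median spot signal of 112 to 208.5 over a local background of 23 to 31.5. Over the alternative settings the change ranged from -0.57 to -0.24 with Y30F and from -0.82 to -0.46 with Y30E.

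A dimmer FOSL1 probe (A_23_P322519) gave 0.0417, 0.0635 and 0.151 in Y30F-DMSO and 0.0323, 0.0324 and 0.0249 in Y30F-DEX. In Y30E-DMSO it gave 0.0532, 0.0517 and 0.0751, and in Y30E-DEX 0.0257, 0.0282 and 0.0283. It was below the DMSO arrays on every DEX array, as the brighter probe was, and Y30F-DMSO replicate 3 stood well above its partners. It was well above background on 1 of 3 Y30E-DEX arrays and on 3 of 3 in each other group. Its changes of -1.31 ± 0.37 and -1.11 ± 0.37 (log2, SE) did not pass with every probe as a feature (limma adjusted p = 0.143 and 0.215). The second value is uncertain in size, since it rests on 2 Y30E-DEX arrays close to background. The average change of this probe over both receptors was -1.21 ± 0.26 (log2, SE) and passed (limma adjusted p = 0.0301). It uses the same Y30E-DEX arrays, so its size is uncertain too.

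FOSL2 (NM_005253), which encodes FRA2, had 3 probes that differed. Its brightest probe, A_23_P218555, read 2.86, 2.97 and 3.07 in Y30F-DMSO and 2.99, 3.15 and 3.02 in Y30F-DEX. Under Y30E it read 2.79, 3.08 and 2.95 without hormone and 3.25, 3.14 and 3.18 with it. The Y30F groups overlapped and the Y30E groups did not. The log2 differences were 0.04 ± 0.05 and 0.12 ± 0.05 (SE, limma adjusted p = 0.780 and 0.319), with 95% confidence intervals from -0.07 to 0.15 and from 0.01 to 0.23. The second probe, A_23_P345581, differed by 0.06 ± 0.07 and 0.02 ± 0.07.

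The dimmest FOSL2 probe, A_23_P348121, stood apart from these. It gave 0.0214, 0.0307 and 0.0268 in Y30F-DMSO, 0.0418, 0.0336 and 0.0416 in Y30F-DEX, 0.0258, 0.0305 and 0.0261 in Y30E-DMSO and 0.0858, 0.0488 and 0.0403 in Y30E-DEX. All 6 DEX arrays were above all 6 DMSO arrays. With every probe as a feature its average change over both receptors was 0.80 ± 0.17 (log2, SE) and passed (limma adjusted p = 0.0300), while neither single effect did (adjusted p = 0.351 and 0.0724). It was well above background on 11 of 12 arrays, with a median spot signal of 71 to 127. What part of FOSL2 each probe reads is not given in the sources used here.

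FOSB (NM_006732, probe A_23_P429998), the remaining FOS family member, was close to background, well above it on 8 of 12 arrays. It entered the test only through Y30E-DEX, where 3 of 3 arrays were above background. Its scaled signals were 0.0254, 0.0237 and 0.0217 in Y30F-DMSO, 0.0208, 0.0319 and 0.0374 in Y30F-DEX, 0.0310, 0.0366 and 0.0248 in Y30E-DMSO and 0.0334, 0.0304 and 0.0352 in Y30E-DEX. In both groups divided between slides, the slide 2 arrays were the higher ones, by 0.73 (log2) in Y30F-DEX and by 0.44 in Y30E-DMSO. The changes were 0.31 ± 0.20 with Y30F and 0.11 ± 0.20 with Y30E (SE, limma adjusted p = 0.549 and 0.849). Within slide 1 the Y30F value was -0.18 and within slide 3 the Y30E value was 0.41, so no direction is given for FOSB.

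**Figure D2:**
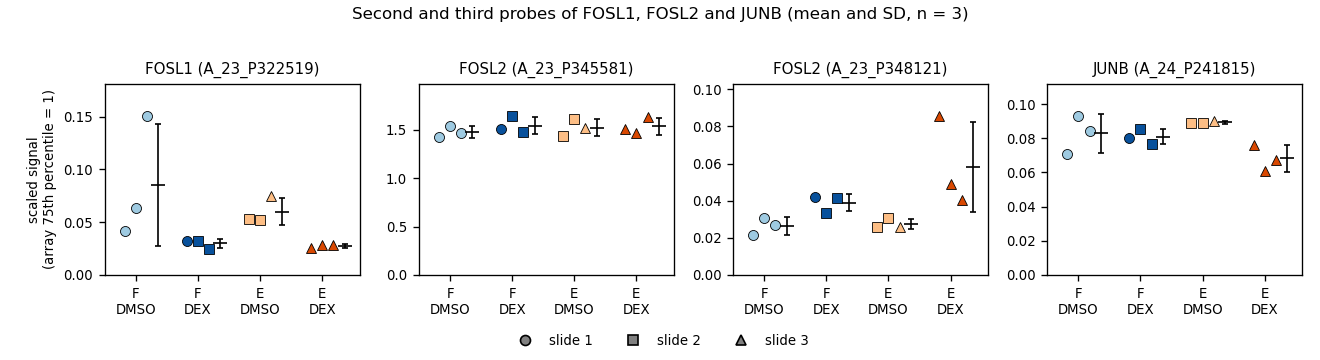
Scaled signal of the 4 other probes of FOSL1, FOSL2 and JUNB by group, drawn as for the brightest probes (points are arrays, bars are mean and SD, n = 3). The dim FOSL1 probe is lower on all 6 DEX arrays, and the dimmest FOSL2 probe is higher on all 6.

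Of the JUN family, JUN and JUNB were measured. JUN (NM_002228, probe A_23_P201538), a strongly activating AP-1 subunit whose promoter holds an AP-1 site, was spotted 10 times per array. Its array means were 15.0, 13.6 and 13.1 in Y30F-DMSO and 14.0, 10.4 and 11.1 in Y30F-DEX. They were 15.5, 14.5 and 14.1 in Y30E-DMSO and 9.13, 9.70 and 11.4 in Y30E-DEX. With Y30E the DEX arrays were all lower, and with Y30F replicate 1 of the DEX group lay among the DMSO arrays.

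The JUN change with Y30E was -0.55 ± 0.12 (log2, SE, limma adjusted p = 0.0430). With Y30F it was -0.24 ± 0.12 and did not pass (adjusted p = 0.405). Spots on 1 array varied with an SD of 0.03 to 0.08 (log2), and arrays of a group with a pooled SD of 0.15. The 10 spots of Y30F-DEX replicate 1, on slide 1, ranged from 13.0 to 15.1, and those of replicates 2 and 3, on slide 2, from 9.38 to 11.1 and from 10.5 to 11.8. Without that array the Y30F change was -0.37 (limma adjusted p = 0.0592). The Y30F-DMSO arrays are then all on slide 1 and the Y30F-DEX arrays all on slide 2. That value thus cannot be told apart from a difference between slides. Leaving out replicate 2 or 3 of Y30F-DEX instead gave -0.15 or -0.20 (adjusted p = 0.648 and 0.735).

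Within slide 1 the Y30F change was 0.01, since replicate 1 is the only DEX array there, and within slide 3 the Y30E change was -0.49. On slide 2 the Y30F-DEX arrays were 0.38 (log2) lower than on slide 1, while the Y30E-DMSO arrays were 0.09 higher than on slide 3. The Y30E call was lost with slide as a block (limma adjusted p = 0.221) and with median centring (0.163). It was also lost with no filter on dim probes, with the replicate block and with the compared groups alone. Leaving out any 1 of 9 arrays ended it too. These were all 6 DMSO arrays, replicate 3 of Y30F-DEX and replicates 1 and 2 of Y30E-DEX, and the change then stayed between -0.64 and -0.48.

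**Figure D3:**
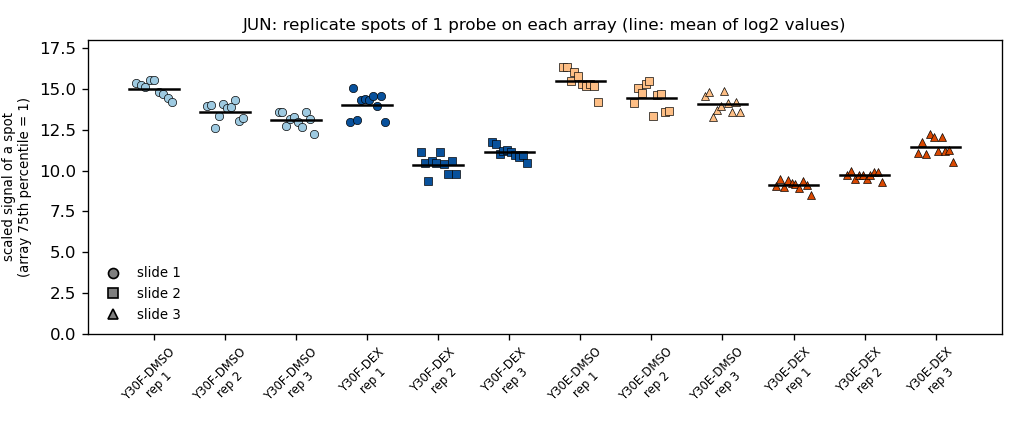
Scaled signal of each JUN spot on each array, with the line at the array's mean of log2 values and a marker for the slide. The 10 spots of Y30F-DEX replicate 1 lie between 13.0 and 15.1, apart from the other Y30F-DEX arrays.

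JUNB (NM_002229, probe A_23_P4821), a JUN relative that can restrain JUN, gave 1.80, 2.21 and 1.95 in Y30F-DMSO and 1.99, 1.52 and 1.76 in Y30F-DEX. It gave 2.21, 1.91 and 1.86 in Y30E-DMSO and 1.73, 1.75 and 1.59 in Y30E-DEX. Only the Y30E groups were apart. The differences of -0.18 ± 0.11 and -0.23 ± 0.11 (log2, SE) did not pass (limma adjusted p = 0.527 and 0.371), and their 95% intervals ran from -0.42 to 0.07 and from -0.48 to 0.01. Y30F-DEX replicate 1 was again the highest of its group. Without it the Y30F value was -0.27 (limma adjusted p = 0.214), again with Y30F-DMSO and Y30F-DEX on different slides. Leaving out replicate 2 or 3 of Y30F-DEX instead gave -0.08 or -0.18 (adjusted p = 0.797 and 0.764). The dimmer JUNB probe (A_24_P241815) differed by -0.03 ± 0.10 with Y30F and by -0.39 ± 0.10 with Y30E (adjusted p = 0.943 and 0.105).

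EGR1 (NM_001964, probe A_23_P214080) had the smallest p-value of the 8 members with each receptor. Its scaled signals were 4.60, 5.58 and 4.69 in Y30F-DMSO and 3.20, 3.58 and 3.48 in Y30F-DEX. They were 4.97, 5.28 and 5.20 in Y30E-DMSO and 3.47, 3.35 and 3.28 in Y30E-DEX. The DMSO groups overlapped, the DEX groups overlapped, and no DEX array reached a DMSO array. The log2 change was -0.53 ± 0.08 (SE) with Y30F and -0.61 ± 0.08 with Y30E (limma adjusted p = 0.00514 and 0.00203, n = 3 against 3).

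EGR1 kept both calls when any 1 of the 12 arrays was left out (adjusted p up to 0.0239 and 0.0143). Within slide 1 its change was -0.63 with Y30F, and within slide 3 it was -0.63 with Y30E. Once slide entered as a block the Y30E call held (limma adjusted p = 0.0452) and the Y30F call just missed (adjusted p = 0.0533). The Y30F call was also lost with the compared groups alone, where the Y30E call held. Both calls were lost without slide 2. In this layout the fits within a slide, without slide 2 and with slide as a block give the same changes for any gene. They rest on the only DEX array of slide 1 and the only DMSO array of slide 3, so their sizes are not separate checks.

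NR4A1 (NM_002135, probe A_23_P128230) did not change past the threshold. It read 0.654, 0.709 and 0.708 in Y30F-DMSO, 0.651, 0.697 and 0.691 in Y30F-DEX, 0.684, 0.674 and 0.746 in Y30E-DMSO and 0.771, 0.762 and 0.683 in Y30E-DEX. All 4 groups overlapped. The differences were -0.02 ± 0.07 and 0.07 ± 0.07 (log2, SE, limma adjusted p = 0.928 and 0.661). Their 95% intervals ran from -0.17 to 0.12 and from -0.07 to 0.22, which leaves out falls of the size seen for EGR1.

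**Figure D4:**
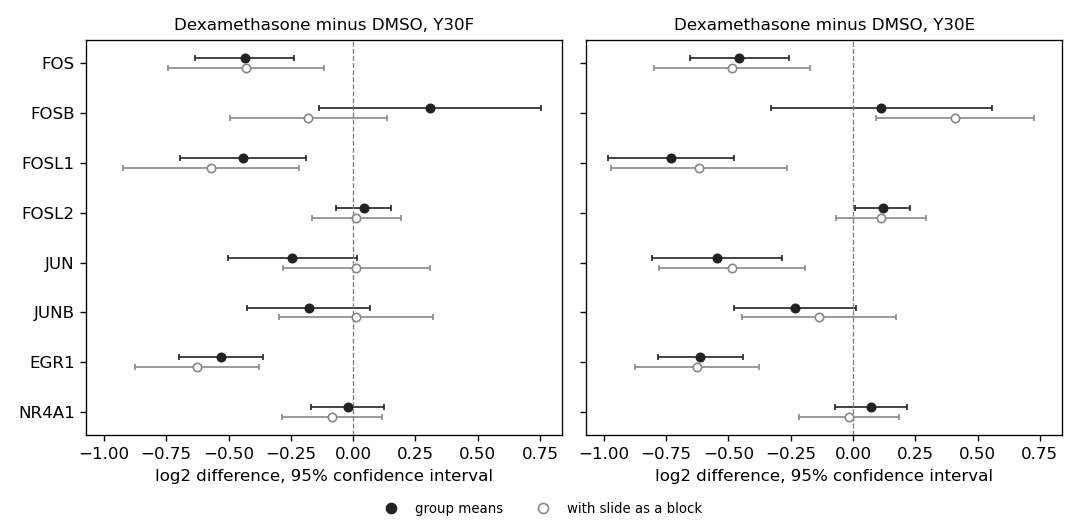
Log2 difference between dexamethasone and DMSO with its 95% confidence interval for the 8 members, with Y30F (left) and Y30E (right). Filled points are from the 4 group means and open points from the fit with slide as a block. FOS, FOSL1 and EGR1 lie below 0 in all 4 fits, and JUN with Y30F moves from -0.24 to 0.01.

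The average of both dexamethasone effects uses all 6 DEX and all 6 DMSO arrays, the same arrays as the single effects. In it an offset of slide 2 cancels, while an offset between slides 1 and 3 does not. At the brightest probe of each, 4 of the 8 members were called lower and none higher, against 1.06% and 2.70% of all features. Among the other probes, with every probe as a feature, the dimmest FOSL2 probe was called higher on average (0.80, log2, limma adjusted p = 0.0300). The dimmer FOSL1 probe was called lower (-1.21, adjusted p = 0.0301). EGR1 fell by 32.7% on average (95% interval 26.9% to 38.1%), FOSL1 by 33.4% (24.6% to 41.2%), FOS by 26.6% (19.1% to 33.4%) and JUN by 24.0% (13.6% to 33.1%). The limma adjusted p-values were 0.000145, 0.00188, 0.00244 and 0.0247 in that order.

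Only 40 of the 20037 features had a lower average change than FOSL1, 45 than EGR1, 103 than FOS and 144 than JUN. With slide as a block these numbers were 149, 129, 257 and 936 in the same order of genes. All 6 DEX arrays were below all 6 DMSO arrays for 3 members, FOS, FOSL1 and EGR1, against 0.998% of features. JUNB averaged -0.21 ± 0.08 (log2, SE, adjusted p = 0.240), FOSL2 0.08 ± 0.04 (0.334), FOSB 0.21 ± 0.14 (0.604) and NR4A1 0.03 ± 0.05 (0.883). With slide as a block the average effects of EGR1 and FOSL1 passed (adjusted p = 0.0049 and 0.0330), while those of FOS and JUN did not (0.0624 and 0.335). The JUN value was then -0.24. Without slide 2 the average of EGR1 alone passed (adjusted p = 0.0290), and JUN also missed with median centring (0.0592). Leaving out single arrays ended the average call of JUN in 7 of 12 cases (adjusted p up to 0.0732). Those were Y30F-DMSO replicate 1, Y30F-DEX replicates 2 and 3, Y30E-DMSO replicates 1 and 2, and Y30E-DEX replicates 1 and 2. It ended none of the average calls of the other 3 genes.

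**Figure D5:**
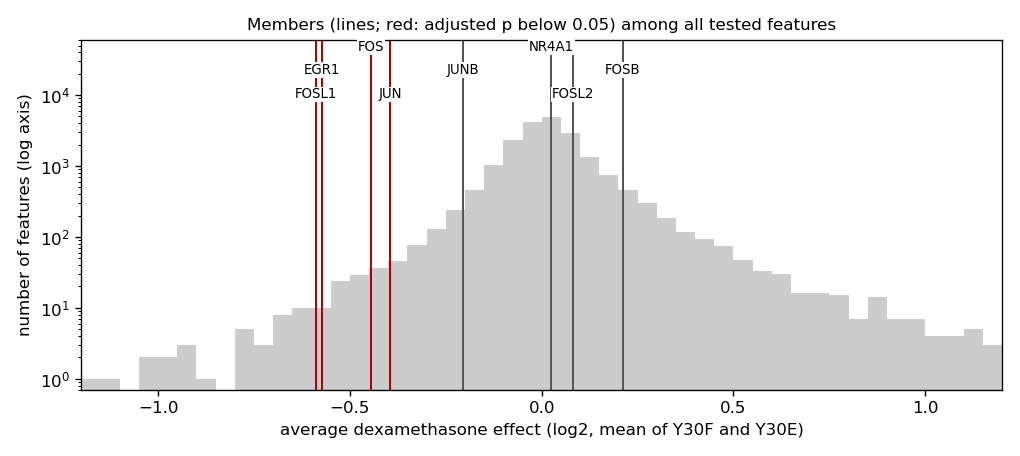
Number of features (log axis) by average dexamethasone effect (log2) among the 20037 tested, with a line for each of the 8 members, red where the adjusted p is below 0.05. The range shown is 1.2 either way and leaves out 33 features. FOSL1, EGR1, FOS and JUN lie on the far lower side and the other 4 members nearer the centre.

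The second question was whether the receptors differed in these genes. No member had a difference of the dexamethasone effects past the threshold in limma, as for 0.00% of all features (18 of them passed with slide as a block). That count rested on single arrays, since leaving out Y30F-DEX replicate 1 made it 1130. Leaving out replicate 3 of Y30E-DMSO gave 125 and replicate 3 of Y30E-DEX gave 1, with 0 members called in each case. Without Y30F-DEX replicate 1 the Y30F effect, and without Y30E-DMSO replicate 3 the Y30E effect, compares groups on different slides. The 1130 and the 125 thus cannot be told apart from a slide difference. At an unadjusted p below 0.05 there were 0 members and 2255 features (11.3%). The difference, Y30E effect minus Y30F effect, was -0.08 ± 0.11 for EGR1 and -0.02 ± 0.13 for FOS (log2, SE). The 95% intervals were -0.32 to 0.16 and -0.30 to 0.26. It was -0.30 ± 0.17 for JUN, with an interval from -0.67 to 0.07, and -0.29 ± 0.16 for FOSL1, from -0.65 to 0.07 (limma adjusted p = 0.542 and 0.555). With slide as a block the values moved apart, to -0.50 for JUN (95% interval -0.92 to -0.08, unadjusted p = 0.0239) and -0.05 for FOSL1 (-0.55 to 0.45). FOSB was then 0.59 (0.14 to 1.04, unadjusted p = 0.0158), and the limma adjusted p of JUN and FOSB was 1.00 and 0.958. A difference between the receptors was thus not shown for JUN or FOSL1 after adjustment, and its size depended on how slide was treated.

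Under the same treatment no member differed between the receptors past the threshold. The share of all features called was 0.00998% under DMSO (2 higher and 0 lower in Y30E) and 0.0150% under dexamethasone (2 and 1, or 1 and 5 with median centring). FOS was lower in Y30E than in Y30F by a log2 difference of -0.24 ± 0.09 (SE) under DMSO and -0.26 ± 0.09 under dexamethasone, with unadjusted p = 0.0230 and 0.0155 and limma adjusted p = 0.278 and 0.276. FOSL1 was -0.40 ± 0.11 under dexamethasone (unadjusted p = 0.00515, adjusted p = 0.228). At an unadjusted p below 0.05 these were the only members, 1 of 8 under DMSO and 2 of 8 under dexamethasone, where 13.9% and 13.6% of all features passed. With slide as a block in limma, FOS was above that level (unadjusted p = 0.214 and 0.134), as was FOSL1 under dexamethasone (0.186). JUN under DMSO was then below it, at 0.49 higher in Y30E (limma unadjusted p = 0.0186, adjusted p = 0.694). Without Y30F-DEX replicate 1 the features called under DMSO numbered 598 and those under dexamethasone 65. Leaving out replicate 3 of Y30E-DMSO gave 27 and 66, and leaving out any other array gave 0 to 11 and 0 to 3. No member was among them. No slide held both receptors under the same treatment, so there is no value within a slide. With median centring FOS passed under DMSO, where 199 features were then called higher and 1379 lower and the median of all features moved by -0.18. For EGR1 the differences were 0.06 ± 0.08 and -0.02 ± 0.08, and for NR4A1 0.02 ± 0.07 and 0.12 ± 0.07.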

How the data were processed

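The authors scanned 1-colour Cy3 arrays of a human 4x44K design with Agilent Feature Extraction version 12, per the submitters' processing notes. Per the file headers, the deposited intensity of a spot is its processed green signal after background subtraction and detrending, with no step between arrays. The deposited series table holds the same intensities (0 values differed). Members and lists were chosen with earlier results of these data known. Further gene lists and likeness searches that had been planned were not run, since the files used here pair no record ID with a gene name, and members were named through the records given for them.

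Control spots (1639) and outlier spots were left out. The log2 signal minus the array's 75th percentile over 43376 spots was averaged over the spots of a probe. Probes with at least 0.5 of their spots well above background on every array of at least 1 group were kept (25570), and the brightest probe of a record was tested (20037 features). For other probes of a member every kept probe was a feature. limma 3.58.1 (lmFit, eBayes, R 4.3.3) was fitted across all features on 4 group means, leaving 8 residual degrees of freedom. P-values were adjusted by Benjamini-Hochberg within each of 6 comparisons. The procedure was tested on simulated data. Alternatives were other scalings, normexp (offset 50, on the median signal), the series table, other filters, slide as a fixed or random block (statmod 1.5.0), single slides, no slide 2, a replicate block, the compared groups alone, another prior, a threshold of 0.01 and leaving out each array. The number of arrays limits the precision.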

Additional observations from a re-analysis of the deposited data

How the results depend on the processing

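The number of members called, 2 with Y30F, 4 with Y30E and 4 for the average effect, depended on the settings, although FOS, FOSL1 and EGR1 stayed below 0 in every alternative run for the 3 effects. For Y30F the count was 3 with quantile normalization and with median centring, where FOSL1 was added. It was 1 with normexp, with no filter, with the trend and robust prior, and at a threshold of 0.01. It was 0 with slide as a fixed block, on slide 1 alone, without slide 2 and with the compared groups alone. For Y30E it was 2 with median centring, with no filter, with the compared groups alone and at 0.01, 1 with slide as a fixed block, and 0 on slide 3 alone and without slide 2. For the average it was 2 with the fixed slide block and 1 without slide 2. Between the receptors under DMSO it was 1 with median centring and 0 in the other settings. Leaving out each array gave 1 to 2 for Y30F and 1 to 4 for Y30E. Fits by slide have 1 array in the smaller group of each comparison, assumed to vary like the others. Over all features the fixed slide block called 120, 182 and 360 for the 3 effects, against 365, 423 and 755. The random slide block and the series table kept all 3 counts. The Y30E count was 3 with quantile normalization, with normexp and with the replicate block. The average count was 3 with median centring, with no filter and at a threshold of 0.01. With the replicate block the Y30F count was 1. Replicate numbers showed no pairing (correlations of -0.059 to 0.011 between same-numbered arrays of the compared groups), so the block is given only here. Signals close to background limit FOSB and the dimmer probes of FOSL1 and FOSL2. The FOS probe, the brighter FOSL1 probe and the dimmer JUNB probe were also dim. Over the alternatives the average change ranged from -0.63 to -0.35 for FOSL1 and from -0.50 to -0.22 for FOS (log2). JUN with Y30F was at or below -0.15 except in the fits by slide.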
